A study of Solanum lycopersicum with 18 samples.

Results

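Ethylene-related genes of tomato (Solanum lycopersicum) were followed after 2 snapdragon regulators of anthocyanin synthesis were switched on. The genes are 85 of the 5295 features in the authors' deposited table of fold changes. They were chosen by the words of the table's own descriptions: ethylene, 1-aminocyclopropane-1-carboxylate (ACC), AP2 domain, ERF, dehydration-responsive element, DREB and CBF, read at the start of a word. The same letters stood in 107 descriptions. Of these, 20 held them only inside a longer word such as superfamily or methylenetetrahydrofolate, and 2 are palmitoyltransferases that carry the name erf2, and these 22 were left out. The 85 genes comprise 4 ACC synthases, 30 ACC oxidases or ACC oxidase-like genes, 5 receptor and signalling genes and 46 transcription factors. Among the factors are 38 ethylene response factors (ERF) and AP2 domain genes, 7 AP2-like genes and 1 dehydration-responsive element-binding gene. The domain annotation agrees in large part with these names. The AP2/ERF DNA-binding domain is listed for 42 of the 46 factors, and 0 features that list it lie outside the 85. Another 2 factors, Solyc04g007000 and Solyc06g082520, list a B3 DNA-binding domain, and 2 list no domain. Each of the 85 genes lists at most 1 domain, so an AP2/ERF domain beside a listed one would not be seen.

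Ethylene is a gaseous plant hormone. ACC synthase makes ACC from S-adenosylmethionine, usually the limiting step, and ACC oxidase turns ACC into ethylene. Receptors in the endoplasmic reticulum repress the response until ethylene binds them, after which factors of the ethylene insensitive 3 (EIN3) class accumulate and switch on genes of the ERF family. ERF proteins share the AP2 domain, and many bind the GCC box in promoters of defence genes, while the dehydration-responsive element-binding (DREB/CBF) branch of the family acts in drought and cold. In roots, ethylene is known for limiting elongation and promoting root hairs, and it is made quickly after wounding.

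Tomato had been given a system that makes Rosea1 (a MYB factor) and Delila (a bHLH factor) once dexamethasone (DEX), a steroid, is added, and the labels name no group without it. RNA sequencing covered 6 groups of 3 libraries each, namely callus (cultured undifferentiated tissue) 3 h and 24 h after 10 mg/L DEX, uninduced callus, roots of seedlings 3 h and 24 h after 10 mg/L DEX, and uninduced roots. All groups were kept at ambient temperature with a cycle of light and dark. Neither the promoter, nor the number of transgenic lines, nor the cultivar was given in the sources used here. No group is labelled as given DEX without the 2 regulators, so their effects and those of DEX cannot be told apart. The uninduced samples carry no labelled time, and no uninduced group is labelled for 3 h or for 24 h. Effects of time of day and of handling therefore cannot be told apart from those of induction either.

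Each value below is the authors' fold, read as a DEX group over the uninduced samples of the same tissue since the headers do not name the denominator, and both times of a tissue share those uninduced samples. The table holds features selected by the authors at 2-fold and a false discovery rate of 0.05 in at least 1 comparison, as its name states, so genes of the family that changed less are not among the 85. Values per library were not analysed here, the depth behind a fold is unknown, and no difference carries a test. Higher and lower mean a fold of at least 2. A fold of exactly 1, or the same fold at both times, is listed for 11 of the 85 genes in callus and 2 in roots, and what such values rest on cannot be seen from the table. In bulk tissue, fewer cells of a type and less RNA per cell cannot be told apart.

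At 3 h after DEX, a larger share of ERF genes than of all features was higher in both tissues, while ACC oxidases in callus were more often lower than higher. In callus after 3 h, 32 of the 85 genes (37.6%) were higher, against 27.8% of all features, and 19 (22.4%) were lower, against 23.4%. In roots after 3 h, 33 genes (38.8%) were higher, against 31.3% of all features, and 27 (31.8%) were lower, against 44.6%. At 24 h the shares of higher genes lay near those of all features. In callus after 24 h, 15 genes (17.6%) were higher, against 18.0%, and 20 (23.5%) were lower, against 21.5%. In roots after 24 h, 11 genes (12.9%) were higher, against 11.7%, and 11 (12.9%) were lower, against 21.9%. The median log2 fold of the 85 genes was 0.60 in callus after 3 h and 0.03 in roots after 3 h, against 0 and -0.58 for all features. With the root 3 h column centred on that median, 41 of the 85 genes were higher and 15 lower, against 38.4% and 25.4% of all features. Centring the root columns also ended 11 lower calls on genes named below, 10 of them after 3 h. They are those of Solyc03g093550, Solyc05g051310, Solyc06g060070, Solyc06g068270, Solyc08g008100, Solyc09g089690, Solyc11g010400 (both times), Solyc11g072100, Solyc11g072110 and Solyc12g042210.

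**Figure D1:**
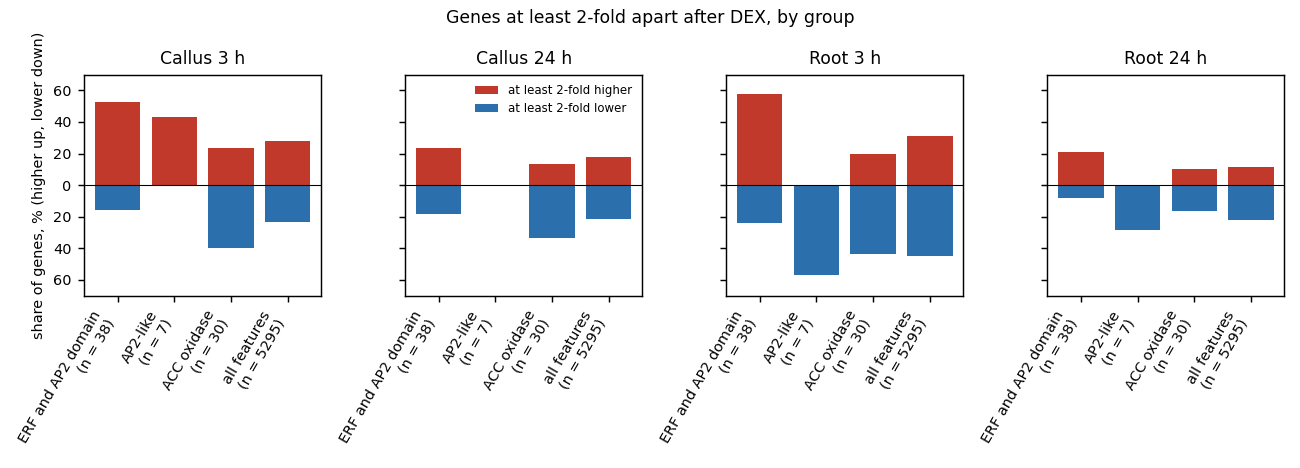
Share of genes at least 2-fold higher (red, upwards) and at least 2-fold lower (blue, downwards) after DEX, in percent, for ERF and AP2 domain genes, AP2-like genes, ACC oxidases and all features of the table, in 4 panels for callus and roots after 3 h and 24 h. ERF and AP2 domain genes were higher in 52.6% of cases in callus after 3 h and 57.9% in roots after 3 h, against 27.8% and 31.3% of all features.

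Of the 38 ERF and AP2 domain genes, 20 were higher and 6 lower in callus after 3 h, and 22 were higher and 9 lower in roots after 3 h. Of the 30 ACC oxidase genes, 7 (23.3%) were higher and 12 (40.0%) lower in callus after 3 h, against 27.8% and 23.4% of all features. In roots after 3 h, 6 were higher, where 31.3% of all features were, and 13 (43.3%) lower, against 44.6%, so the share that was lower was near that of all features. With the root column centred, 9 oxidases were higher and 7 lower. Of the ERF and AP2 domain genes, 24 were then higher and 4 lower. In callus after 24 h, 10 of the 30 oxidases (33.3%) were lower, against 21.5% of all features, and 4 were higher.

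The 4 ACC synthases, enzymes of the committed step, each had a pattern of its own. Solyc02g091990 was the member with the largest change, at 7.64-fold higher in roots after 3 h and 1.85-fold higher in roots after 24 h (the authors' deposited table). In callus the same synthase stood at 1.76-fold higher after 3 h and 1.05-fold lower after 24 h (the authors' deposited table). Solyc01g095080 was 2.21-fold higher in callus after 3 h, 1.42-fold higher after 24 h, and within 1.23-fold of uninduced roots at both root times (the authors' deposited table). Its change past 2-fold was thus seen in callus after 3 h only. Solyc08g081550 reached 2.03-fold higher in callus after 24 h, and Solyc08g008100 was 2.00-fold lower there and 2.14-fold lower in roots after 3 h (the authors' deposited table). No synthase was past 2-fold in roots after 24 h, but 1, Solyc02g091990, was with the column centred.

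ACC oxidases belong to the 2-oxoglutarate and iron-dependent dioxygenases, and all 30 list that domain. The family has many members with other substrates, so a description as ACC oxidase or ACC oxidase-like does not by itself show that a gene makes ethylene. The 12 genes described simply as ACC oxidase had 7 lower and 1 higher in callus after 3 h, with a median of 3.42-fold lower. The 12 described as ACC oxidase-like had 2 lower and 5 higher at that time, when 23.4% of all features were lower and 27.8% higher. In roots after 3 h the 2 wordings were alike in counts, with 4 lower and 3 higher for ACC oxidase and 5 lower and 3 higher for ACC oxidase-like, or 2 lower and 4 higher for each with the column centred. The grouping by wording was chosen after the values were seen.

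The oxidases that were higher did so in different tissues. Solyc12g005940 was higher in callus alone, at 3.98-fold after 3 h and 6.71-fold after 24 h, and stood at 1.59-fold and 1.45-fold lower in roots at those times (the authors' deposited table). For the oxidase-like Solyc09g089580 folds higher than uninduced tissue were 2.06 and 3.57 in callus after 3 h and 24 h, and 11.4 and 2.15 in roots (the authors' deposited table). It was the sole ACC oxidase gene at least 2-fold higher in every comparison. Solyc10g076680 had the highest root fold of the group, 27.8-fold after 3 h (the authors' deposited table), and was back near the uninduced level after 24 h (1.03-fold lower). It is listed at exactly 1 in callus at both times. Solyc12g006380 was 4.62-fold higher in roots after 3 h and 2.03-fold after 24 h, and 2.49-fold higher in callus after 3 h (the authors' deposited table). Solyc09g010020 was 3.35-fold higher in callus after 3 h and 2.21-fold in roots after 3 h (the authors' deposited table). Among the others past 2-fold were Solyc02g071470, with 2.24-fold and 2.49-fold higher in callus after 3 h and 24 h, and Solyc01g108880, with 2.71-fold higher in roots after 3 h (the authors' deposited table).

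Lower oxidases were more numerous, except in roots after 3 h with the column centred, where 9 were higher and 7 lower. After 3 h, 5 of the 30 (16.7%) were lower in both tissues, against 13.7% of all features. Solyc11g045520 was lower throughout, at 6.11-fold and 10.2-fold in callus after 3 h and 24 h and 5.40-fold and 4.48-fold in roots (the authors' deposited table). The authors' deposited table lists Solyc09g066320 at 4.05-fold and 2.37-fold lower in callus, and at 12.0-fold and 1.69-fold lower in roots. Solyc01g108860 was 4.11-fold and 4.86-fold lower in callus and 11.1-fold and 1.58-fold lower in roots at the same times (the authors' deposited table). Both were thus far below the uninduced roots after 3 h and close to them after 24 h. Solyc11g010410 showed the same course more steeply, at 34.9-fold lower in roots after 3 h and 1.49-fold lower after 24 h (the authors' deposited table), and is listed at exactly 1 in callus. Solyc11g072200 was 7.97-fold and 2.85-fold lower in roots after 3 h and 24 h, and carries the same 3.46-fold lower value at both callus times (the authors' deposited table). Solyc06g073580 stayed low in roots, at 12.9-fold and 13.2-fold lower (the authors' deposited table), with exactly 1 in callus at both times.

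A further 4 oxidases were lower in callus after 3 h without passing 2-fold in roots. Solyc02g071430, Solyc02g071440 and Solyc09g008560 were 4.33-fold, 4.13-fold and 4.16-fold lower in callus after 3 h (the authors' deposited table). Solyc01g105660 was 3.73-fold lower there and 2.18-fold lower after 24 h (the authors' deposited table). In roots these 4 genes stayed under 2-fold at both times, the nearest being Solyc09g008560 at 1.997-fold lower after 24 h (the authors' deposited table). Solyc11g010400 was 10.8-fold lower in callus after 3 h and 1.48-fold lower after 24 h, with 2.20-fold and 2.12-fold lower in roots (the authors' deposited table). The next 2 oxidases differed in sign between the tissues. Solyc02g081190 was 3.46-fold and 4.32-fold lower in callus after 3 h and 24 h, but 2.40-fold higher in roots after 3 h (the authors' deposited table). Solyc02g036350 was 5.07-fold higher in roots after 24 h, and is listed with the same 3.38-fold lower value at both callus times (the authors' deposited table). Solyc06g060070 was 1.05-fold higher and 4.96-fold lower in callus after 3 h and 24 h, and 2.04-fold and 5.68-fold lower in roots (the authors' deposited table). Of the 9 oxidases not named so far, Solyc09g089830 was 5.77-fold lower in roots after 3 h (the authors' deposited table). The other 8, Solyc04g009850, Solyc06g068270, Solyc09g010000, Solyc09g089690, Solyc09g089740, Solyc09g089780, Solyc11g072100 and Solyc11g072110, stayed within 2.60-fold of the uninduced samples in every comparison (the authors' deposited table).

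**Figure D2:**
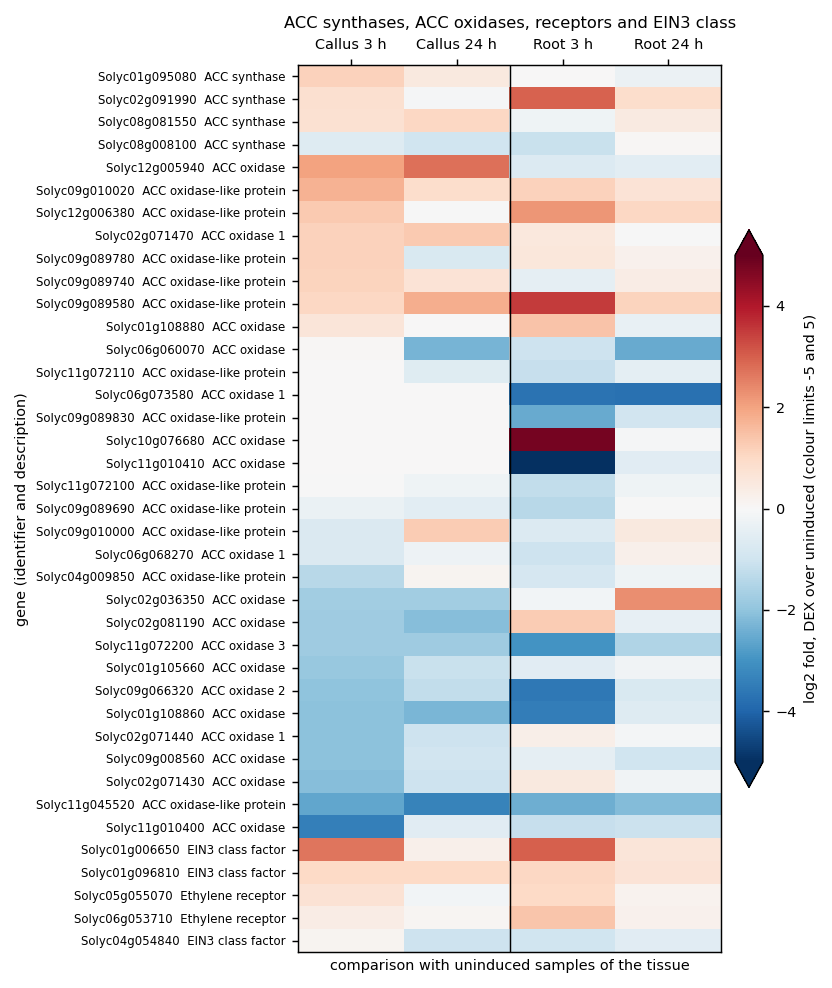
Log2 fold after DEX over uninduced samples (colour, with limits of -5 and 5) for 4 ACC synthases, 30 ACC oxidases and 5 receptor and EIN3 class genes, 1 gene a row, in callus and roots after 3 h and 24 h. Oxidases are ordered by their callus 3 h value. Of the 30 oxidases, 12 (40.0%) were at least 2-fold lower in callus after 3 h and 13 (43.3%) in roots after 3 h, against 23.4% and 44.6% of all features.

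Receptor and signalling genes were higher in roots after 3 h. Of the 5, 4 were at least 2-fold higher there, against 31.3% of all features, and 0 were lower. The strongest was Solyc01g006650, an EIN3 class factor, at 8.02-fold higher in roots after 3 h and 1.53-fold after 24 h (the authors' deposited table). In callus it stood at 6.42-fold higher after 3 h and 1.18-fold after 24 h (the authors' deposited table). A second EIN3 class gene, Solyc01g096810, was close to 2-fold higher in 3 comparisons, with 1.98-fold and 2.00-fold in callus after 3 h and 24 h and 2.06-fold in roots after 3 h (the authors' deposited table). The third, Solyc04g054840, was not higher, and stood at 2.04-fold lower in callus after 24 h and 1.99-fold lower in roots after 3 h (the authors' deposited table). Of the receptors, Solyc06g053710 was 2.65-fold and Solyc05g055070 2.01-fold higher in roots after 3 h, and both were within 1.16-fold of uninduced roots after 24 h (the authors' deposited table). In callus both receptors stayed under 2-fold.

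Among the ERF genes of roots after 3 h, the factor described as ERF 7 (Solyc07g042230) had the highest fold, 129-fold, followed by a factor 2b gene (Solyc04g051360) at 90.7-fold and a factor 4 gene (Solyc03g026270) at 30.2-fold (the authors' deposited table). All 3 encode proteins with the AP2/ERF DNA-binding domain, by which such factors recognise promoters. Their courses then parted. Solyc03g026270 was still 12.3-fold higher in roots after 24 h, Solyc07g042230 was 3.27-fold higher, and Solyc04g051360 is listed at exactly 1 (the authors' deposited table). In callus, Solyc07g042230 and Solyc04g051360 were 13.7-fold and 9.44-fold higher after 3 h and are listed at exactly 1 after 24 h (the authors' deposited table). Solyc03g026270 was level in callus after 3 h (1.00-fold) and 1.69-fold lower after 24 h (the authors' deposited table). Its change was therefore past 2-fold in roots alone.

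The 6 genes described as ethylene responsive factor 2b were all higher in roots after 3 h, where 31.3% of all features were. Their median was 17.3-fold higher. This group was singled out after its values were seen. Besides Solyc04g051360, they were Solyc02g090770 at 26.2-fold, Solyc10g050970 at 17.9-fold, Solyc01g108240 at 16.7-fold, Solyc08g082210 at 8.63-fold and Solyc09g075420 at 2.84-fold (the authors' deposited table). At 24 h in roots, 1 of the 6 was higher and 1 lower, against 11.7% and 21.9% of all features. Solyc02g090770 was then 3.44-fold lower, and Solyc09g075420 2.37-fold higher (the authors' deposited table). Callus gave a mixed picture after 3 h, with 4 of the 6 higher and 1 lower, against 27.8% and 23.4% of all features. There Solyc10g050970 was 13.7-fold, Solyc09g075420 3.25-fold and Solyc01g108240 3.08-fold higher, while Solyc08g082210 was 2.56-fold lower (the authors' deposited table). At 24 h in callus, Solyc01g108240 and Solyc10g050970 were 6.89-fold and 3.47-fold lower (the authors' deposited table). Solyc09g075420 alone of the 6 passed 2-fold upwards in each of the 4 comparisons, and it had the smallest fold of the 6 in roots after 3 h.

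Of the 3 factor 13 genes, 2 were higher in callus after 3 h and all 3 in roots after 3 h, against 27.8% and 31.3% of all features. Solyc06g066540 was 42.3-fold and 18.2-fold higher in callus after 3 h and 24 h, and 11.4-fold and 1.33-fold higher in roots (the authors' deposited table). Solyc01g057080 was 39.3-fold higher in callus after 3 h and 3.37-fold in roots after 3 h, and is listed at exactly 1 after 24 h in both tissues (the authors' deposited table). These were the highest callus folds of the 85 genes after 3 h. The third, Solyc10g076370, was 4.90-fold and 2.13-fold higher in roots after 3 h and 24 h, and under 2-fold in callus (the authors' deposited table).

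Of 7 factor 1a genes, 5 were higher and 0 lower in callus after 3 h, where 27.8% and 23.4% of all features were. In roots after 3 h, 3 were higher and 2 lower, against 31.3% and 44.6%. With the column centred, 4 were higher and 0 lower, against 38.4% and 25.4%. After 24 h, 2 were higher in callus and 3 in roots, against 18.0% and 11.7% of all features. In neither tissue was any lower then, against 21.5% and 21.9%. Solyc08g007230 was higher throughout, at 13.5-fold and 9.45-fold in callus after 3 h and 24 h and 7.57-fold and 3.07-fold in roots (the authors' deposited table). Solyc09g089930 was 11.4-fold and 3.85-fold higher in callus, but within 1.70-fold of uninduced roots (the authors' deposited table). Solyc03g093550 was 2.48-fold lower after 3 h and 2.50-fold higher after 24 h in roots (the authors' deposited table), and the 3 h value was under 2-fold with the column centred. Factor 2a genes had 5 of 6 higher in callus after 3 h, all between 2.12-fold and 3.35-fold (the authors' deposited table), and 1 of 6 after 24 h. In roots after 3 h, Solyc04g071770 and Solyc04g012050 of that group were 7.28-fold and 6.84-fold higher (the authors' deposited table). Their callus values after 3 h, 3.15-fold and 2.12-fold higher, were smaller (the authors' deposited table). The factor 2 gene Solyc02g077370 kept a similar size in all comparisons, 5.40-fold and 3.73-fold higher in callus and 4.02-fold and 3.61-fold higher in roots (the authors' deposited table).

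ERF genes that were lower were fewer. As for the genes above, the numbers in these descriptions do not say whether a factor activates or represses its targets. The factor 12 gene Solyc01g067540 had the lowest callus folds of the family, 18.1-fold lower after 3 h and 21.5-fold lower after 24 h (the authors' deposited table). In roots it was 9.71-fold lower after 3 h and 1.24-fold higher after 24 h (the authors' deposited table). The factor 1b gene Solyc01g090340 was 9.93-fold and 4.96-fold lower in roots after 3 h and 24 h, and 2.45-fold lower in callus after 3 h (the authors' deposited table). Solyc04g072300, described as factor 4, was 4.09-fold lower in callus and 9.37-fold lower in roots after 3 h, and under 2-fold after 24 h in both (the authors' deposited table). Both of the last named thus had their lowest value in roots after 3 h. The factor 4 gene Solyc04g007000, with a B3 domain, was 3.44-fold lower after 3 h and 3.01-fold higher after 24 h in callus, and 3.04-fold lower in roots after 3 h (the authors' deposited table). Solyc05g051310, a factor 5 gene, was 3.12-fold and 2.62-fold lower in callus and 2.81-fold lower in roots after 3 h (the authors' deposited table). The factor 1 gene Solyc08g066660 was 2.74-fold higher in callus after 3 h, then 3.46-fold lower in callus and 2.98-fold lower in roots after 24 h (the authors' deposited table). These values put Solyc08g066660 above uninduced callus early and below it late. The factor 2a gene Solyc12g042210 had the same course in callus, 2.77-fold higher after 3 h and 3.43-fold lower after 24 h, and was 2.85-fold lower in roots after 3 h (the authors' deposited table). Genes of 1 description thus did not share 1 direction in the factor 4 and factor 2a groups.

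The AP2-like genes, of the branch known for a doubled AP2 domain, had unlike counts in callus and roots after 3 h. Of 7, 3 (42.9%) were higher and 0 lower in callus, against 27.8% and 23.4% of all features. In roots 0 were higher and 4 (57.1%) lower, against 31.3% and 44.6%. With the root column centred, 3 were higher and 4 lower, against 38.4% and 25.4%, so the number higher then matched that of callus. By the calls as reported, 0 were higher in 1 tissue and lower in the other. Solyc03g123430 was 9.28-fold higher in callus after 3 h and 8.45-fold lower in roots after 24 h (the authors' deposited table). Solyc11g061750 was 3.54-fold and 9.20-fold lower in roots after 3 h and 24 h, with exactly 1 in callus at both times (the authors' deposited table). Solyc04g049800, Solyc05g051380 and Solyc04g077490 were 4.22-fold, 3.24-fold and 3.18-fold lower in roots after 3 h and under 2-fold elsewhere (the authors' deposited table). The 1 gene described as dehydration-responsive element-binding protein, Solyc06g033850, carries the same 10.8-fold lower value at both callus times and was 1.68-fold and 2.77-fold lower in roots after 3 h and 24 h (the authors' deposited table). The 12 factors not named in the text lay within 3.35-fold of the uninduced samples throughout (the authors' deposited table).

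**Figure D3:**
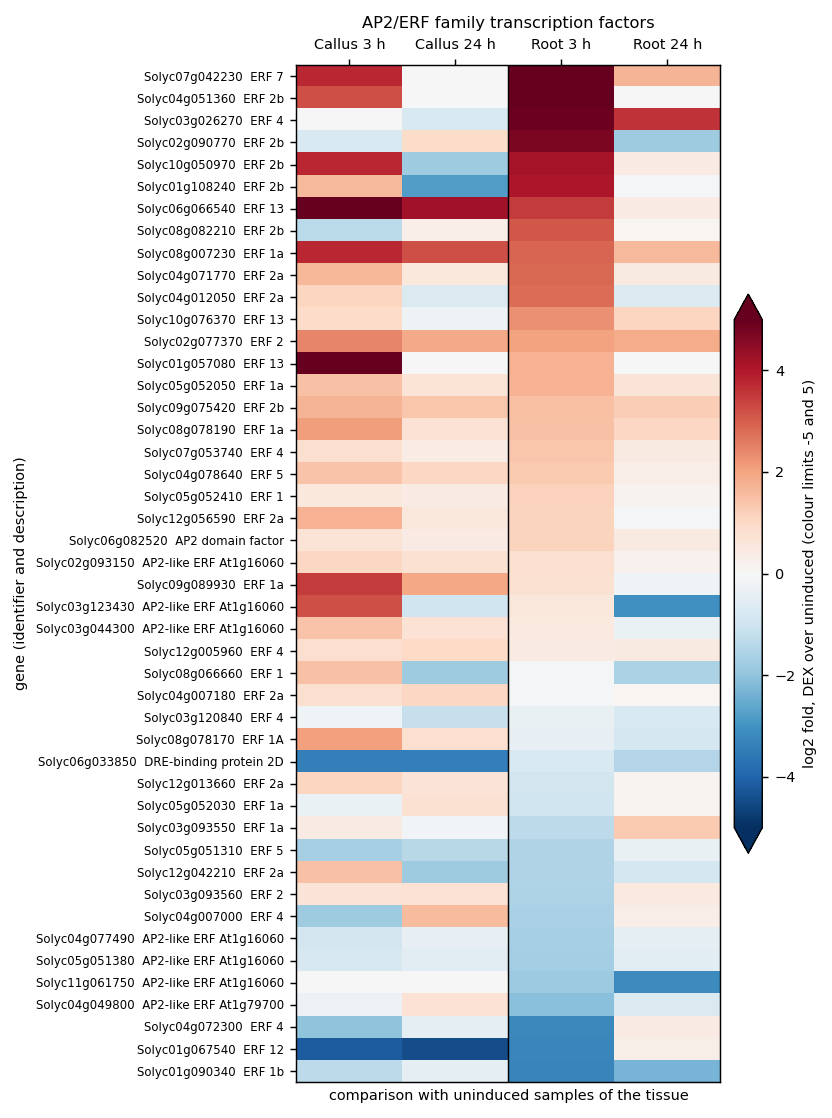
Log2 fold after DEX over uninduced samples (colour, with limits of -5 and 5) for the 46 AP2/ERF family factors, 1 gene a row, ordered by their root 3 h value, in callus and roots after 3 h and 24 h. ERF here shortens the table's words for ethylene responsive transcription factor. The 22 factors at least 2-fold higher in roots after 3 h fill the upper rows, and 8 factors were higher in roots after 24 h.

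The 24 h groups were then set against the 3 h groups of the same tissue by the ratio of the authors' folds, in which the shared uninduced samples cancel. In callus the 24 h value was at least 2-fold below the 3 h value for 21 of the 85 genes (24.7%), against 19.8% of all features, and at least 2-fold above it for 11 (12.9%), against 15.0%. In roots it was below for 28 genes (32.9%), against 23.0% of all features, and above for 23 (27.1%), against 26.0%. Factors contributed most of the decline. Of the 46 factors, 16 (34.8%) were lower after 24 h than after 3 h in callus and 19 (41.3%) in roots. Of the 30 oxidases, 3 were lower after 24 h than after 3 h in callus and 6 in roots, and 6 and 10 were higher. The balance of the oxidases in roots turned with the root columns centred, where 8 were lower and 6 higher after 24 h than after 3 h. With the same centring, 38 of the 85 genes were below and 11 above, against 35.3% and 16.7% of all features.

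Single genes showed how steep the course was. In roots, the 24 h value of Solyc02g090770 was 90.1 times lower than after 3 h, that of Solyc07g042230 39.5 times and that of the oxidase Solyc10g076680 28.8 times (the authors' deposited table). For the EIN3 class gene Solyc01g006650 it was 5.45 times lower in callus and, in roots, 5.23 times lower (the authors' deposited table). Solyc10g050970 was 47.6 times lower after 24 h than after 3 h in callus and 13.3 times lower in roots, and Solyc01g108240 21.2 and 17.5 times lower (the authors' deposited table). Ratios were also steep for Solyc04g051360 in roots, at 90.7 times lower, and Solyc01g057080 in callus, at 39.3 times lower (the authors' deposited table). Both of these rest on a fold listed at exactly 1 after 24 h. Opposite courses were those of the oxidase Solyc11g010410, with a 24 h to 3 h ratio of 23.5 in roots, and of the factors Solyc04g072300 and Solyc01g067540, with 12.6 and 12.0 in roots (the authors' deposited table). Each of these had been at least 9-fold lower after 3 h.

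**Figure D4:**
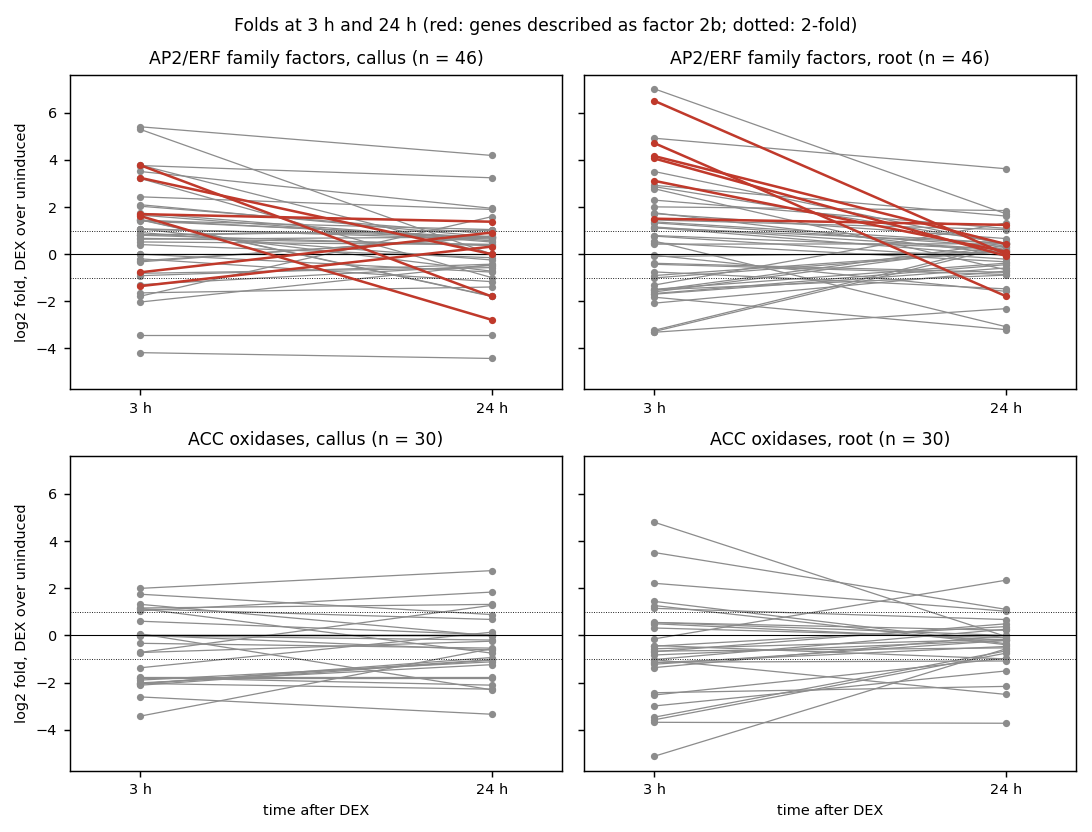
Log2 fold after DEX over uninduced samples after 3 h and 24 h for the 46 AP2/ERF family factors (top) and the 30 ACC oxidases (bottom), in callus (left) and roots (right), with 1 line a gene, red lines for the 6 factor 2b genes and dotted lines at 2-fold. The red lines start between 2.84-fold and 90.7-fold higher in roots after 3 h. After 24 h, 1 of the 6 is at least 2-fold higher there, against 11.7% of all features.

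Callus and roots share no samples, so their calls can be compared. At 3 h, 19 genes were higher in both tissues, which is 57.6% of the genes higher in roots and 59.4% of those higher in callus, against 49.7% and 55.9% over all features. Over all features, 15.5% were higher in both after 3 h, and 22.4% of the 85 genes were. Among the factors the number was 15 of 46. Lower in both were 10 genes (11.8%), against 13.7% of all features, and opposite in direction were 3 (3.53%), against 3.66%. The 3 were the oxidase Solyc02g081190 and the factor Solyc08g082210, higher in roots and lower in callus, and the factor Solyc12g042210, lower in roots and higher in callus, whose root value was under 2-fold with the column centred. At 24 h, 4 genes (4.71%) were higher in both, against 6.52% of all features, and 5 (5.88%) were lower in both, against 10.6%. The 4 were the factors Solyc02g077370, Solyc08g007230 and Solyc09g075420 and the oxidase-like Solyc09g089580, each described above as higher in every comparison. The 5 were the oxidases Solyc06g060070, Solyc11g045520 and Solyc11g072200, the factor 1 gene Solyc08g066660 and the dehydration-responsive element-binding gene Solyc06g033850. Opposite after 24 h was 1 gene, Solyc02g036350, against 1.91% of all features.

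**Figure D5:**
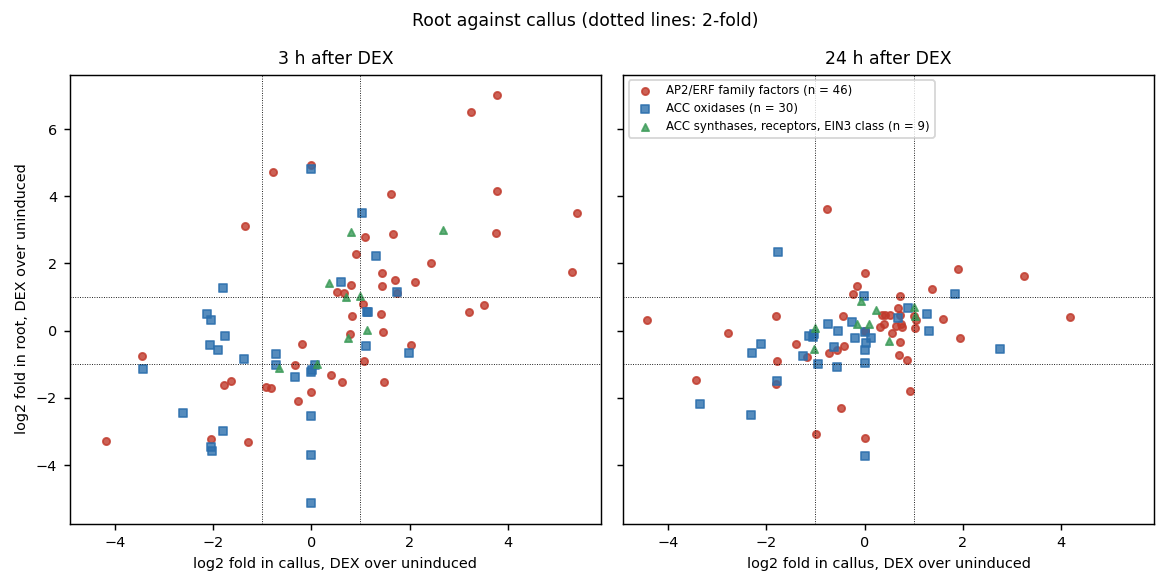
Log2 fold in roots (vertical axis) against log2 fold in callus (horizontal axis), DEX over uninduced, after 3 h (left) and 24 h (right), with 1 point a gene for AP2/ERF family factors, ACC oxidases, and ACC synthases with receptor and EIN3 class genes, and dotted lines at 2-fold. At 3 h the upper right corner holds the 19 genes higher in both tissues, and after 24 h it holds 4.

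Tomato identifiers number the genes along each chromosome, and 27 of the 85 genes had another member within 100 identifier numbers, in 11 runs of up to 5 genes. Of these runs, 7 held a gene past 4-fold. Neighbours did not always go together. On chromosome 1, the oxidase Solyc01g108880 was 2.71-fold higher in roots after 3 h, and its neighbour Solyc01g108860 was 11.1-fold lower (the authors' deposited table). On chromosome 2, Solyc02g071430 and Solyc02g071440 had nearly the same folds in all comparisons, 4.33-fold and 4.13-fold lower in callus after 3 h, while Solyc02g071470 was 2.24-fold higher (the authors' deposited table). Close copies can share reads, and how such reads were counted was not given in the sources used here. On chromosome 8, the factors Solyc08g078170 and Solyc08g078190 were 4.10-fold and 4.29-fold higher in callus after 3 h, but 1.35-fold lower and 2.74-fold higher in roots after 3 h (the authors' deposited table). On chromosome 9, the run of 4 oxidase-like genes from Solyc09g089690 to Solyc09g089830 had 2 genes higher in callus after 3 h, Solyc09g089740 at 2.18-fold and Solyc09g089780 at 2.20-fold, and 2 lower in roots after 3 h (the authors' deposited table). The factor 1a gene Solyc09g089930 closes that run, with the 11.4-fold in callus given above. In roots after 3 h, Solyc09g089740 and Solyc09g089780 were both under 2-fold. On chromosome 11, Solyc11g072100 and Solyc11g072110 were 2.34-fold and 2.24-fold lower in roots after 3 h beside the 7.97-fold of Solyc11g072200 (the authors' deposited table). The pair Solyc11g010400 and Solyc11g010410, also on chromosome 11, differed most in roots after 3 h, with 2.20-fold and 34.9-fold lower (the authors' deposited table). On chromosome 12, the factor 4 gene Solyc12g005960 was 2.01-fold higher in callus after 24 h, next to the 6.71-fold of the oxidase Solyc12g005940 (the authors' deposited table).

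Genes around the pathway were counted from word lists. Of 5 methionine cycle genes, which supply S-adenosylmethionine, 4 were higher and 1 lower in roots after 3 h, against 31.3% and 44.6% of all features. In callus 2 were higher and 1 lower after 3 h, against 27.8% and 23.4%. After 24 h in callus, 1 was higher and 0 lower, against 18.0% and 21.5%. The S-adenosylmethionine synthases Solyc10g083970 and Solyc12g099000 were 2.92-fold and 3.25-fold higher in roots after 3 h, and 3.37-fold and 2.40-fold higher in callus after 3 h (the authors' deposited table). In roots after 24 h both were under 2-fold. The words for further signalling parts (EIN2, CTR1, EIN3-binding and the like) matched 0 features.

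Defence genes of the kinds whose promoters ERF proteins are known to bind, such as chitinases, glucanases, osmotins and pathogenesis-related proteins, numbered 37. In callus after 3 h, 11 (29.7%) were higher and 12 (32.4%) lower, against 27.8% and 23.4% of all features. In callus after 24 h, 15 (40.5%) were higher and 6 (16.2%) lower, against 18.0% and 21.5%. In roots after 3 h, 8 (21.6%) were higher and 16 (43.2%) lower, against 31.3% and 44.6%, or 12 and 9 with the column centred. In roots after 24 h, 7 (18.9%) were higher and 11 (29.7%) lower, against 11.7% and 21.9%, or 10 and 10 centred. The chitinase Solyc04g072000 was 16.0-fold higher in callus and 6.39-fold in roots after 3 h (the authors' deposited table), and the glucanase Solyc10g079860 was 10.00-fold higher in callus and 8.09-fold higher in roots after 24 h in that table. Of the pathogenesis-related genes, Solyc07g006710 was 27.5-fold lower in roots after 3 h and Solyc01g106600 18.3-fold lower in roots after 24 h (the authors' deposited table).

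Dehydration and cold genes, of the kinds known for the DREB/CBF branch, were higher in roots after 3 h in 11 of 13 cases, with 1 lower, against 31.3% and 44.6% of all features. Late embryogenesis abundant proteins guard other proteins during drying, and Solyc01g095140 of that family was 105-fold higher in roots after 3 h and 1.30-fold after 24 h (the authors' deposited table). A galactinol synthase (Solyc02g084980), which starts the raffinose sugars, was 20.7-fold higher and a dehydrin (Solyc04g082200) 13.5-fold higher in roots after 3 h (the authors' deposited table). The 1 lower gene, Solyc06g066420 (cold induced protein-like), was 15.8-fold lower in roots after 3 h and 21.1-fold higher after 24 h (the authors' deposited table). In callus after 3 h that gene was 24.2-fold lower (the authors' deposited table). In callus after 3 h, 7 of the 13 were higher and 2 lower, against 27.8% and 23.4% of all features. After 24 h in callus, 4 were higher and 3 lower, against 18.0% and 21.5%. In roots after 24 h, 2 were higher and 1 lower, against 11.7% and 21.9%. The lower one was another galactinol synthase, Solyc01g079170, at 8.39-fold lower (the authors' deposited table).

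Markers of other tissue were counted beside these results. Of 46 photosynthesis genes, which mark green tissue, 0 were higher and 42 (91.3%) lower in roots after 3 h, against 31.3% and 44.6% of all features. In roots after 24 h, 33 (71.7%) were higher and 0 lower, against 11.7% and 21.9%. With the root columns centred, 33 were lower after 3 h and 38 higher after 24 h. In callus after 3 h, 1 was higher and 21 (45.7%) lower, against 27.8% and 23.4%. In callus after 24 h, 16 (34.8%) were higher and 2 lower, against 18.0% and 21.5%. Of 3 root cap genes, set beside the same shares, 2 were lower in roots after 3 h and 3 after 24 h. In callus 1 of them was higher after 3 h and 2 were lower after 24 h. The part of these changes in the ethylene-related folds was not tested. With folds alone, the level of a marker in a tissue could not be checked.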

How the data were processed

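Stranded mRNA libraries, 18 in 6 groups of 3, were sequenced from both ends, per the labels' protocols. The labels do not say whether replicates came from separate plants or cultures. The submitters' processing notes list CASAVA 1.8.1, while any aligner, genome build, counter or normalization was not given in the sources used here. Holding 5295 features, the deposited table gives, per the file headers, a signed fold change from CLC bio software for each of 4 comparisons, used here as a score whose values below 0 are sizes of reductions, and the same value as a linear ratio. The headers do not name the denominator. Uninduced samples of each tissue were taken as that denominator.

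The tests planned for values per library could not be used, so calls are a fold of at least 2. Log2 folds were taken from the deposited ratio. Members, word lists and roles were chosen with earlier results of these data known. Genes named were all synthesis and signalling genes, the 6 highest and 6 lowest factors of each comparison, and runs of neighbours with a gene past 4-fold. Groups sharing a description, examples from word lists and a few further genes were chosen for naming once their values had been seen, as was the removal of the 2 palmitoyltransferases. The supplied RefSeq gene table matched 0 of the identifiers, and no sequences are shown. Counting was tested on simulated data. Python 3.11.15, numpy 2.4.6, pandas 2.3.3 and matplotlib 3.10.9 were used.

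Alternatives planned were a 4-fold threshold, columns centred on their median, removal of genes with exact or repeated folds, words matched anywhere, and AP2/ERF domain genes only. Inclusion of the 2 palmitoyltransferases was chosen after seeing the data.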

Additional observations from a re-analysis of the deposited data

How the results depend on the processing

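No paired analysis was possible because the table holds folds between groups and no values per library, and for the same reason no replicate could be left out. Depth limits the folds by an unknown amount. With the 2 palmitoyltransferases added, the counts of genes higher and lower in each of the 4 comparisons stayed within 1.5 times their values, and the time and tissue counts were not recomputed. At a 4-fold threshold, genes higher and lower numbered 12 and 10 in callus after 3 h, 3 and 7 in callus after 24 h, 18 and 11 in roots after 3 h, and 2 and 6 in roots after 24 h. Higher in both tissues were then 7 after 3 h and 0 after 24 h, and lower in both 5 and 2. From 3 h to 24 h, 2 genes in callus and 8 in roots were at least 4-fold up, and 10 and 14 were down. These smaller counts follow from the threshold. The shares of all features at 4-fold were not counted, so the 4-fold counts cannot be set against them. With the root columns centred, 15 genes were lower after 3 h, the median log2 fold after 3 h was 0.61, and 11 genes were at least 2-fold above after 24 h against 3 h. Without genes of exact or repeated folds, 3 were lower in both tissues after 24 h, and fewer genes are counted by construction. With words matched anywhere, 17 were lower in roots after 24 h. The next counts are of the 42 genes with the AP2/ERF domain alone, so fewer genes are counted by construction. In callus after 3 h, 23 were higher and 4 lower, against 27.8% and 23.4% of all features. In callus after 24 h, 8 were higher and 6 lower, against 18.0% and 21.5%. In roots after 3 h, 21 were higher and 11 lower, against 31.3% and 44.6%. In roots after 24 h, 8 were higher and 5 lower, against 11.7% and 21.9%. The median log2 fold of the 42 genes was 1.08 and 0.38 in callus after 3 h and 24 h, and 0.96 and 0.13 in roots. Of the calls on named genes, 11 of those in roots that were lower went under 2-fold with centring, and 133 were kept. The callus medians were 0, so callus calls could not change. The root medians were below 0 (-0.58 after 3 h and -0.13 after 24 h), so higher calls in roots could only grow. Lower calls in roots were thus the only ones that centring could end, and most of the 133 were kept by construction.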
